A study of Mus musculus with 16 samples.

Results

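Gene expression in untreated mouse embryo fibroblasts (MEFs) that lack SIMPL was compared with that in untreated littermate control MEFs, 4 arrays of each, out of 16 arrays in the series. These 8 arrays were taken by their labels, which give no treatment and the genotype WT or IRAK1BP1 KO. All of the MEFs came from mice of mixed C57Bl/6 x 129Sv background, and proliferating cultures were used for RNA. The other 8 arrays hold MEFs of the same genotypes treated with recombinant human TNFα at 10 ng/ml, for 45 minutes by the labels and for longer by the study's methods, and they serve here only as values set beside the untreated ones. The study's methods give 4 derivations of MEFs per strain, each starting from 1 embryo. The labels name neither the embryo nor the day behind an array.

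SIMPL, encoded by Irak1bp1, is a coactivator that binds the p65 subunit of NF-κB in the nucleus after TNFα stimulation and raises transcription of a subset of TNFα genes. MEFs are the adherent cells that grow out of minced embryos: mostly fibroblasts, which secrete and remodel collagen-rich matrix, with a share of other cells such as macrophages, muscle precursors and cells of body linings. Their genes for body position, matrix and growth factors depend on which parts of the embryo contributed and how long the cells were grown. A comparison of untreated cultures shows what already differed before TNFα was added.

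The targeted gene was examined first. Irak1bp1, at chr9:82829806-82847688 of build GRCm38.p6, read 8.19, 8.21, 7.85 and 8.12 on the littermate arrays and 5.32, 5.16, 5.62 and 5.35 on the SIMPL-/- arrays, in log2 units of robust multi-array average (RMA) signal. All 4 SIMPL-/- values were under the 4 littermate values, and the difference was -2.73 (SE 0.10, adjusted p = 1.69e-09 from limma, here and below with Benjamini-Hochberg adjustment over all genes). The sources used here do not say which part of the gene was deleted or where the probes lie in it. The SIMPL-/- values lay under 5.80, the value that 95% of 1027 olfactory receptor genes, dim here, did not exceed. Xist, the noncoding RNA of the inactive X chromosome, read 10.03, 10.00, 9.88 and 10.04 in littermate and 8.36, 8.65, 8.38 and 8.44 in SIMPL-/- MEFs, and the Y-linked gene Eif2s3y read 7.51, 7.55, 7.57 and 7.53 and 8.24, 8.27, 7.99 and 8.25. Both groups read above 5.80 for both genes, the arrays of a group were alike in both, and the genotypes differed by -1.53 for Xist and 0.65 for Eif2s3y. These genes did not sort the arrays of a group into male and female. Whether the arrays of a group come from separate embryos, as the methods describe, therefore cannot be told from them. Should the arrays of a group stem from 1 culture, culture and genotype cannot be told apart, and the p-values then measure only the spread between arrays. The study's methods give no sex for the embryos. A share of male and female cells that differs between the groups cannot be told apart from genotype here and was not tested.

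The 2 genotypes differed widely before TNFα. At an adjusted p under 0.05, 8643 of 19938 genes (43.3%) differed, of which 3586 (18% of all) were lower and 5057 (25.4%) higher in SIMPL-/- MEFs, against a median SD within a group of 0.089 in littermate and 0.0897 in SIMPL-/- MEFs. With each array centered on its median, 3103 genes were lower and 6988 higher, so that the higher share of the calls was 69.2% in place of 58.5%. Most of the higher calls were small, 4613 of them under 1.5-fold and 444 (2.23% of genes) at or above it, and the median over all genes was 0.075. The counts and medians of the gene lists below are to be read against these shares of 18% lower and 25.4% higher and this median. Of the olfactory receptor genes, 162 (15.8%) were higher and 5 lower, with 1 of them past 2-fold. Large differences ran mainly downward: 391 genes (1.96%) fell and 121 (0.607%) rose at least 2-fold, and 71 fell and 11 rose at least 4-fold. In 7898 genes (39.6%) the 4 SIMPL-/- values did not overlap the 4 littermate values, 17.5% of genes lying lower and 22.1% higher. The first principal component of the 8 arrays divided the genotypes and took up 77.6% of the variance.

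**Figure D1:**
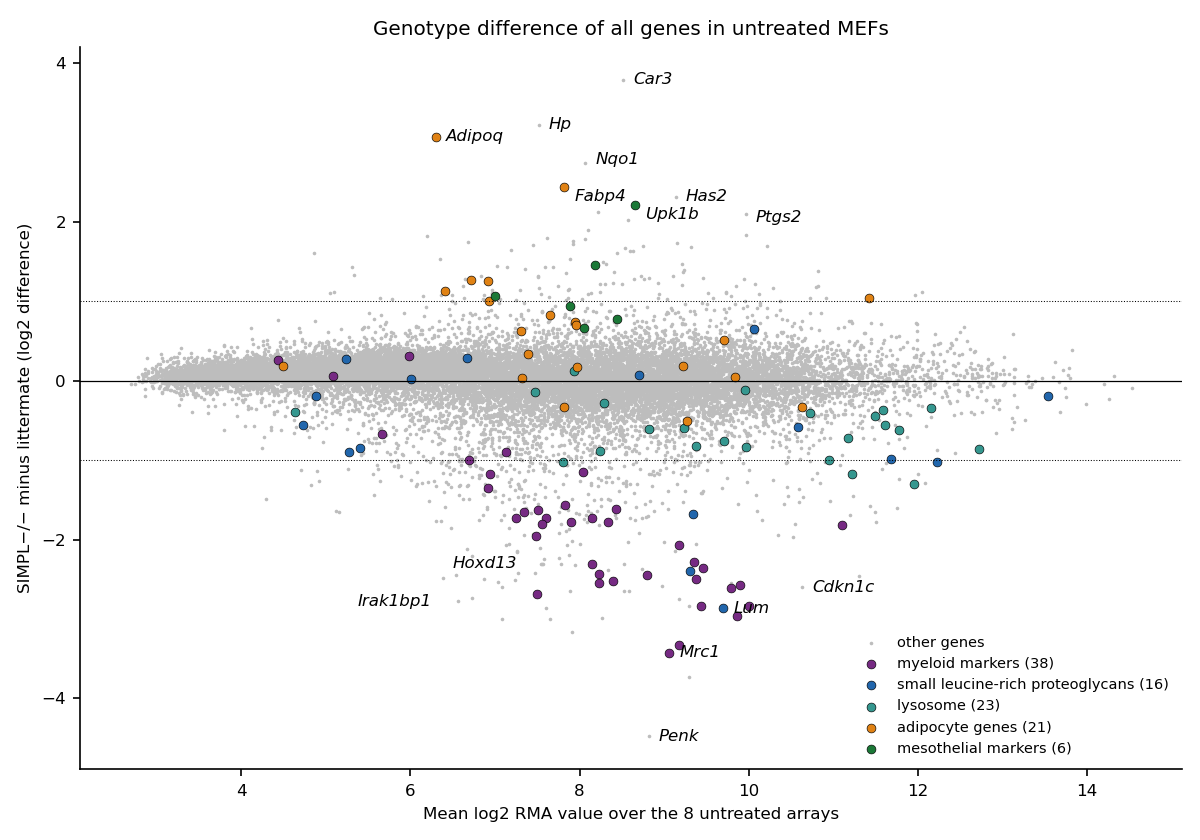
Difference between untreated SIMPL-/- and littermate MEFs (vertical axis, log2) against the mean level (horizontal axis, log2 RMA value) for 19938 genes, with dotted lines at a 2-fold difference. The myeloid markers lie mostly below the lower line, the mesothelial markers lie above 0, and the gene names mark some of the largest differences in either direction.

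The largest fall was that of Penk, which encodes proenkephalin, the precursor of opioid peptides. Penk read 11.19, 11.27, 10.82 and 10.95 on the littermate arrays and 6.46, 6.58, 6.72 and 6.56 on the SIMPL-/- arrays, 22.3-fold lower (difference -4.48, SE 0.096, adjusted p = 3.38e-11). Of the 15 genes with the largest falls, 8 are known from macrophages: Fcrls (-3.73), a scavenger receptor, Mrc1 (-3.42), the mannose receptor, Mpeg1 (-3.33), a pore-forming protein of phagosomes, Cd68 (-2.96), a lysosomal glycoprotein, C1qc (-2.84), a chain of complement C1q, Fcer1g (-2.83), an adaptor of Fc receptors, Tlr7 (-2.78), a receptor for viral RNA, and Lilr4b (-3.00), an immunoglobulin-like receptor. The others include genes of mesenchymal cells: Lum (-2.87), a proteoglycan of collagen fibrils, Agtr2 (-2.98), the type 2 receptor of angiotensin II, Angptl1 (-2.86), an angiopoietin-like secreted protein, and Chodl (-3.00), a membrane lectin. Cd93, a membrane glycoprotein of myeloid and endothelial cells, differed by -3.16.

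The largest rise was that of Car3, a carbonic anhydrase abundant in fat and muscle. Car3 read 6.57, 6.56, 6.72 and 6.63 in littermate and 10.33, 10.47, 10.49 and 10.35 in SIMPL-/- MEFs, 13.8-fold higher (difference 3.79, SE 0.061, adjusted p = 4.33e-12). Hp, which encodes the hemoglobin-binding protein haptoglobin, read 6.05, 5.94, 5.88 and 5.75 and 9.06, 9.11, 9.23 and 9.11, a difference of 3.22 (SE 0.069, adjusted p = 3.38e-11). For both genes the values of each genotype lay close together and far from those of the other. Adipoq (3.07) and Fabp4 (2.44), of fat cells, Nqo1 (2.74), a quinone reductase, Has2 (2.32), a hyaluronan synthase, Upk1b (2.21), of mesothelium and urothelium, and Krt18 (2.13), a keratin of simple epithelium, followed. The rest of the 15 included Adcyap1r1 (2.35), the receptor of the neuropeptide PACAP, Ptgs2 (2.11), the inducible cyclooxygenase, Sema7a (2.02), a membrane-bound semaphorin, Cck (1.89), which encodes cholecystokinin, Mgll (1.80), a lipase of monoacylglycerols, and Tm4sf1 (1.83), a tetraspanin-like membrane protein.

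Markers of myeloid cells were lower in SIMPL-/- MEFs almost as a block. Of 38 measured markers, 35 were lower (32 of them at least 2-fold) and 2 higher, with a median difference of -1.81. Mrc1 read 10.67, 10.58, 10.93 and 10.90 in littermate and 7.28, 7.43, 7.51 and 7.15 in SIMPL-/- MEFs, and Csf1r, the receptor of macrophage colony-stimulating factor, read 10.08, 9.98, 10.46 and 10.32 and 8.08, 8.16, 8.18 and 8.12. Ptprc, the pan-leukocyte antigen CD45, read 8.45, 8.16, 8.58 and 8.66 and 6.44, 6.35, 6.53 and 6.68 (difference -1.96, SE 0.10, adjusted p = 2.67e-08). In all 3 genes the groups lay far apart. Summed on the linear scale, the 38 markers came to between 31100 and 39700 on the littermate arrays and between 6974 and 7679 on the SIMPL-/- arrays. The exceptions were Cd163 (0.26), Marco (0.31) and Clec7a (0.063, adjusted p = 0.541), which were dim or nearly so in both genotypes. Most markers were still above 5.80 in SIMPL-/- MEFs, where 3 of the 38 had a mean below it. Lyz2, the lysozyme of macrophages, had a mean of 12.01 in littermate and 10.19 in SIMPL-/- MEFs. Fewer myeloid cells in a culture and less RNA of these genes per cell cannot be told apart in such bulk samples, and for every group of genes below that myeloid cells also express, their part in the difference was not tested.

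Few markers of other blood, vessel, nerve, cartilage and bone cells differed by 2-fold. Of 12 markers of mast, lymphoid and erythroid cells, 1 was lower and 4 higher, all under 1.5-fold, with 9 of the 12 below 5.80 in both genotypes. Of 14 endothelial markers, Erg, a transcription factor, was lower (-1.06) and 5 were higher, led by Emcn (0.68), while Pecam1 (0.092, adjusted p = 0.243) and Kdr (0.11, adjusted p = 0.23) did not pass. Of 18 neural and Schwann markers, 6 were lower and 6 higher. Tubb3, a neuronal tubulin, differed by 1.30, and Map2, which binds microtubules, by -0.94. Of 17 chondrocyte genes, 2 were lower and 3 higher, and of 9 osteoblast genes 1 and 2.

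Fibroblast identity was present in both genotypes, with shifts between its genes. All 21 fibroblast markers had means above 5.80 in both, 12 of them lower (57.1%) and 5 higher (23.8%) in SIMPL-/- MEFs. Col1a1, the main chain of type I collagen, read 14.40, 14.40, 14.37 and 14.35 and 14.18, 14.14, 14.16 and 14.09 and differed by -0.23 (SE 0.05, adjusted p = 0.00257). Lum read 11.20, 11.13, 10.97 and 11.22 and 7.91, 8.25, 8.51 and 8.38 (difference -2.87, SE 0.11, adjusted p = 2.08e-09), the largest fall of the list. Mfap4, a microfibril protein, Dcn, a proteoglycan that binds collagen, and Fbln1, a matrix glycoprotein, differed by -1.52, -1.02 and -0.99. Of the higher members, S100a4, a calcium-binding protein of motile fibroblasts, differed by 1.69, and Thy1, a surface antigen of fibroblasts, by 0.73. The mesenchymal transcription factors split as well: Twist1 fell (-0.81), while Twist2 (0.57) and Snai1 (1.09), a repressor of epithelial genes, rose.

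**Figure D2:**
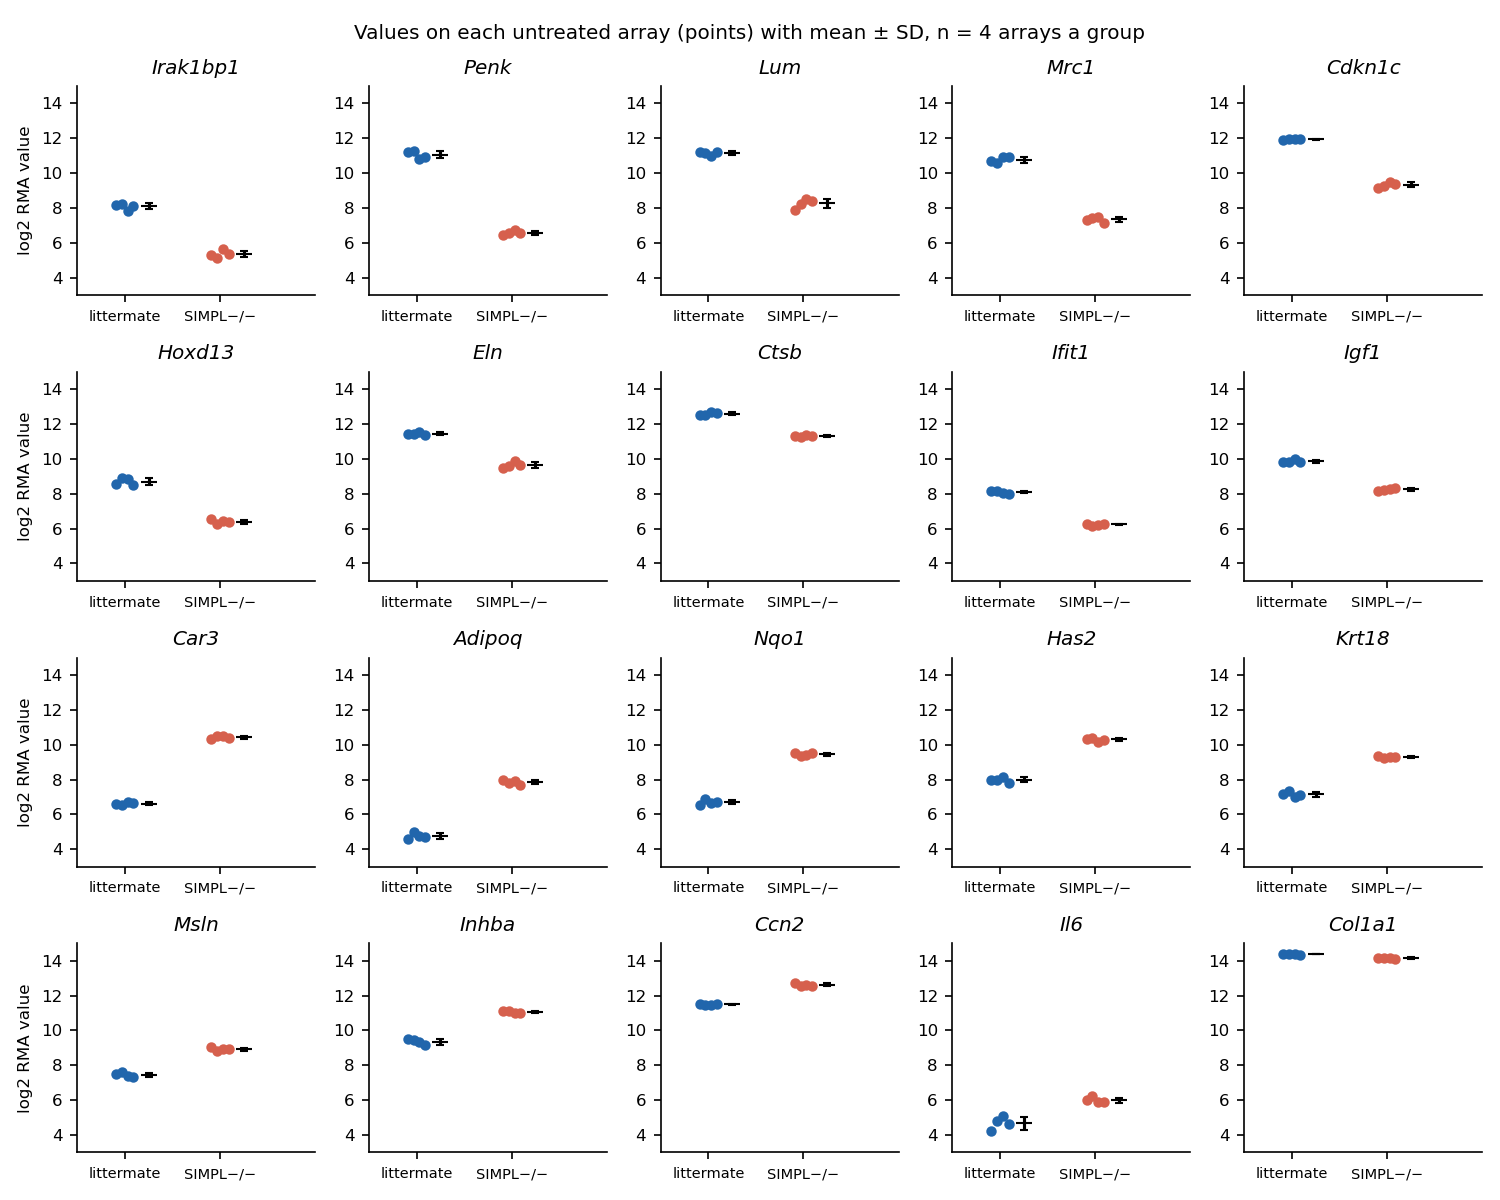
Log2 RMA values (vertical axis) of 20 genes on each untreated array of littermate and SIMPL-/- MEFs (points), with the mean ± SD of 4 arrays beside them and the same axis in every panel. The groups do not overlap in any panel, and the gap is smallest for Col1a1.

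In the matrix, most fibril-associated proteoglycans and elastic fiber genes were lower. Small leucine-rich proteoglycans coat collagen fibrils and set their spacing: of 16 measured, 10 were lower and 3 higher, with a median of -0.57. Ogn (osteoglycin) read 10.56, 10.46, 10.40 and 10.59 in littermate and 7.81, 8.23, 8.15 and 8.21 in SIMPL-/- MEFs (difference -2.40, SE 0.089, adjusted p = 1.69e-09). Podn differed by -1.67, and Prelp, the highest of the 3 that rose, by 0.65. Of 16 genes of elastic fibers and microfibrils, 9 (56.2%) were lower and 2 (12.5%) higher (median -0.34). Eln, which encodes elastin itself, read 11.41, 11.43, 11.57 and 11.40 and 9.45, 9.61, 9.88 and 9.65 (difference -1.80, SE 0.084, adjusted p = 8.46e-09). Fbn2, the fibrillin of embryonic microfibrils, fell by 1.69 and Mfap2 by 1.47, whereas Mfap5 rose by 0.73.

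Of 44 collagens, 12 were lower and 12 higher, 27.3% each (median 0.035). Those that fell most were Col14a1 (-1.56) and Col12a1 (-0.91), which attach to fibrils, and Col8a2 (-1.30), a network-forming collagen. Basement membrane collagens were among the higher, with Col4a6 at 0.61, Col15a1 at 0.49 and Col4a5 at 0.48. Of 22 basement membrane genes, 7 were lower, led by Agrn, which encodes agrin (-0.87), and Nid2, a nidogen (-0.80), and 8 higher (median 0.059). Of 18 genes of collagen processing, 8 were higher and 3 lower (median 0.15). Pcolce2, an enhancer of procollagen cleavage, read 7.11, 7.09, 7.21 and 7.23 in littermate and 9.21, 8.90, 8.82 and 8.89 in SIMPL-/- MEFs (difference 1.79, SE 0.081, adjusted p = 6.93e-09), and the crosslinking lysyl oxidases Loxl3 and Loxl4 rose by 1.38 and 1.11. Its relative Pcolce fell by 0.43. Among matricellular proteins, which bind matrix and receptors, Sparcl1 (-1.80), Tgfbi (-1.64) and Ccn3 (-1.57) fell and Ccn2 (1.11) rose, 12 of 27 being lower and 8 higher (median -0.13).

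Hyaluronan synthesis and matrix proteases also differed. Has2, the main hyaluronan synthase of mesenchyme, read 7.97, 7.99, 8.16 and 7.80 in littermate and 10.35, 10.37, 10.17 and 10.29 in SIMPL-/- MEFs, 4.99-fold higher (difference 2.32, SE 0.077, adjusted p = 7.62e-10). Cd44, the hyaluronan receptor, rose by 1.20, and Stab1, a hyaluronan scavenger receptor of macrophages and endothelium, differed by -2.64. Cemip, which takes part in hyaluronan breakdown, fell by 0.44. Of 45 metalloproteinases and inhibitors, 17 (37.8%) were lower and 9 (20%) higher (median -0.012). Mmp3 (stromelysin) read 8.46, 8.41, 8.20 and 8.16 and 5.67, 5.75, 6.02 and 5.64 (difference -2.54, SE 0.094, adjusted p = 1.6e-09), Mmp13 (a collagenase) differed by -1.55, and Mmp2 (a gelatinase) by -1.24. Timp1, an inhibitor of these enzymes, was the top riser at 1.08. Among 21 integrins, 6 were lower and 7 higher (median 0.055), with Itgb3 (1.32), a subunit of the vitronectin receptor, and Itga5 (1.04), of the fibronectin receptor, rising most, and Itga8 (-1.59) and the leukocyte integrin Itgb2 (-1.73), itself a myeloid marker, falling most.

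**Figure D3:**
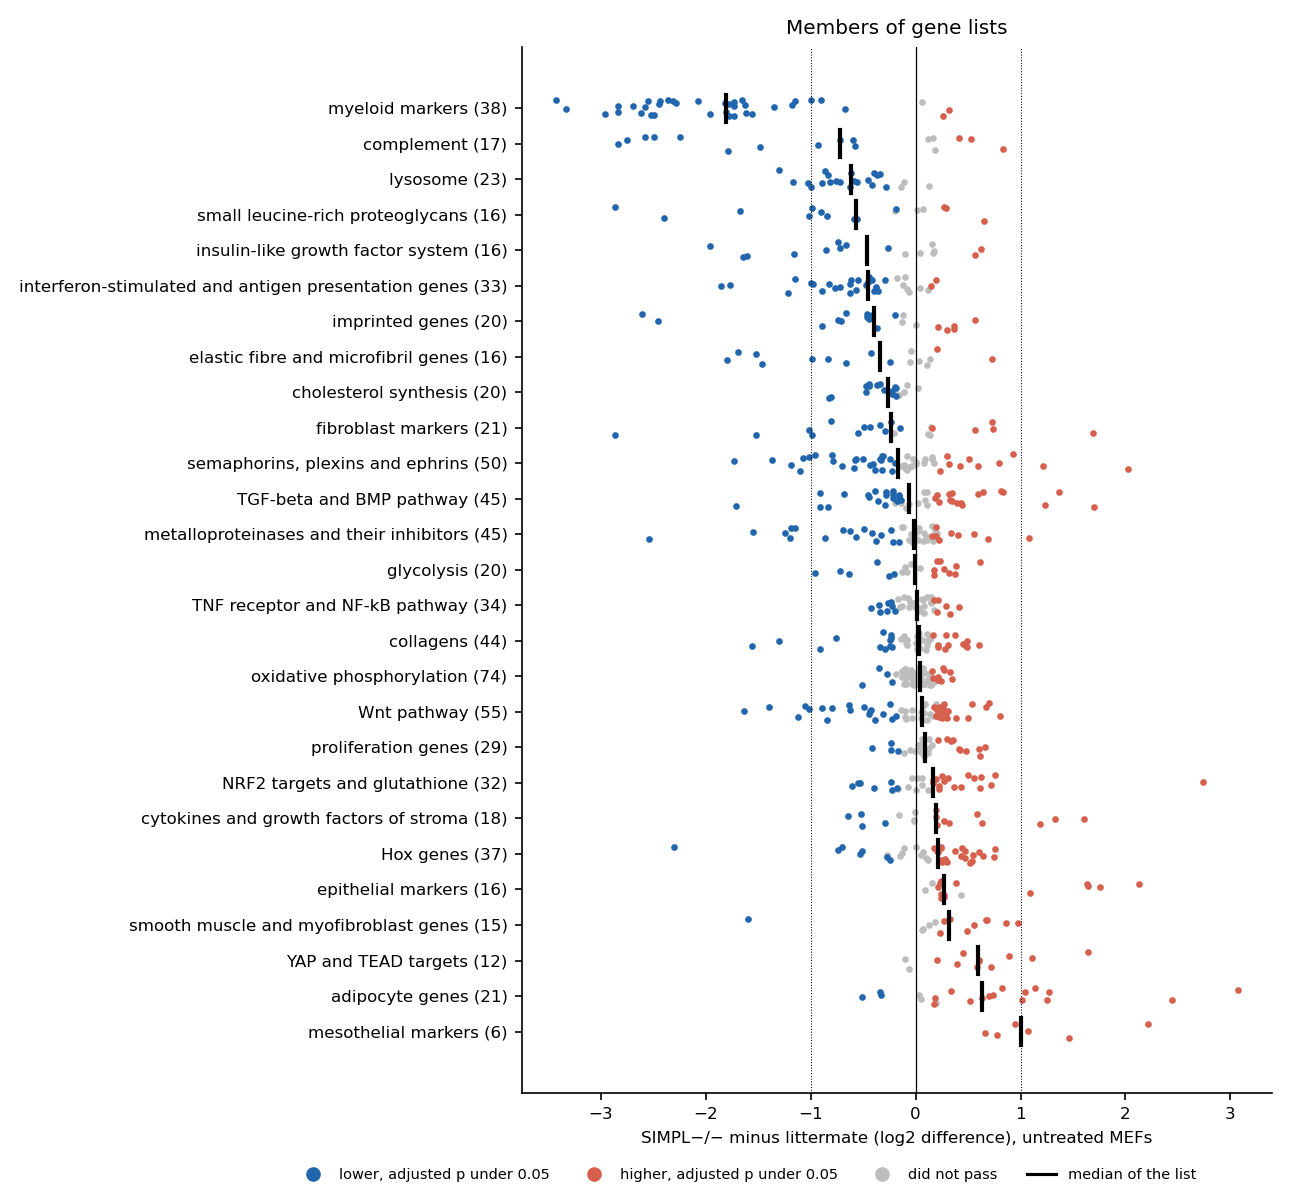
Differences between untreated SIMPL-/- and littermate MEFs (horizontal axis, log2) for the measured members of 27 gene lists (number in parentheses), each point 1 gene, blue where lower and orange where higher at an adjusted p under 0.05, with the median as a black bar. The myeloid markers have the lowest median and the mesothelial markers the highest, and most other lists hold genes of both directions.

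Fat cell genes were higher in SIMPL-/- MEFs. Of 21 measured, 15 were higher (7 of them at least 2-fold) and 3 lower, with a median of 0.63. Adipoq, the hormone adiponectin, read 4.57, 5.01, 4.78 and 4.72 in littermate and 7.96, 7.80, 7.92 and 7.68 in SIMPL-/- MEFs, and the littermate values lay below 5.80. Fabp4, a fatty acid carrier of fat cells, read 6.62, 6.56, 6.62 and 6.60 and 8.87, 9.23, 8.98 and 9.09 (difference 2.44, SE 0.072, adjusted p = 3.06e-10). The lipid droplet proteins Cidec (1.27) and Plin1 (1.25) and the adipokine gene Retn (1.14) rose as well. Pparg, the nuclear receptor that drives fat cell formation, read 7.17, 7.27, 7.28 and 7.25 and 8.09, 8.08, 8.20 and 7.89 (difference 0.82), so that its groups did not overlap either. Those lower were Fabp5 (-0.51), Plin2 (-0.34) and Zfp423 (-0.33).

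Markers of mesothelium, which lines body cavities, and several keratins were higher too. All 6 mesothelial markers rose (median 1.01). Upk1b read 7.71, 7.58, 7.58 and 7.33 in littermate and 9.84, 9.63, 9.81 and 9.77 in SIMPL-/- MEFs (difference 2.21, SE 0.08, adjusted p = 1.4e-09), and Msln, which encodes mesothelin, read 7.50, 7.60, 7.41 and 7.33 and 9.02, 8.81, 8.93 and 8.90 (difference 1.46). Wt1, a transcription factor of mesothelium and kidney, rose least (0.67). Of 16 epithelial markers, 13 (81.2%) were higher and 0 lower (median 0.27). Of the higher ones, 5, all keratins, rose at least 2-fold, and the rest rose under 1.5-fold. In littermate MEFs, 6 of the 16 had means below 5.80. Krt18 read 7.19, 7.34, 6.99 and 7.11 and 9.35, 9.22, 9.30 and 9.29 (difference 2.13, SE 0.073, adjusted p = 9.18e-10), and Krt7 (1.76), Krt8 (1.64), Krt14 (1.64) and Krt19 (1.09) followed. The adhesion molecule Epcam, a defining epithelial marker, had means of 5.56 and 5.65, both below 5.80 (difference 0.092, adjusted p = 0.463), and Cdh1, E-cadherin, had means of 5.71 and 5.98.

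Contractile genes and targets of YAP, a coactivator that enters the nucleus in spread and stretched cells and acts through TEAD factors, leaned upward. Of 15 smooth muscle and myofibroblast genes, 10 (66.7%) were higher and 1, Itga8, lower (median 0.32). Cnn1 (calponin) rose by 0.97, Actg2 by 0.86 and Tagln (transgelin) by 0.68, while Myh11, the smooth muscle myosin, differed by 0.13 (adjusted p = 0.132). Of 12 YAP and TEAD targets, 10 were higher (83.3%) and 0 lower (median 0.59). Ankrd1, a nuclear ankyrin repeat protein, read 7.89, 7.67, 7.79 and 7.76 in littermate and 9.48, 9.59, 9.29 and 9.31 in SIMPL-/- MEFs (difference 1.64, SE 0.076, adjusted p = 8.38e-09). Ccn2, a secreted growth regulator, read 11.54, 11.47, 11.48 and 11.49 and 12.72, 12.55, 12.62 and 12.54 (difference 1.11, SE 0.057, adjusted p = 1.94e-08), and its relative Ccn1 rose by 0.72. In all 3 genes every SIMPL-/- array exceeded every littermate array, whereas Ptpn14 and F3 did not pass (-0.064 and -0.10).

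The letters GGAATG (or CATTCC on the other strand), which TEAD factors are known to bind, were looked for in RefSeq windows of 250 bases before and 50 after each gene's start. They stood in 8 of the 9 members that had a window (88.9%) and in at least 1 window of 16.6% of the 27025 genes that have windows. Of the 7 called members with a window, 7 held them. The list was drawn up of known targets, so its share follows from that choice and says nothing about genotype. The bases before the start of Ccn1 and Ankrd1 are shown, in the direction of the gene and with the matches in capitals, because both rose and both hold such letters. Ccn1 is at chr3:145649986-145650235 on the minus strand with a match that begins 103 bases before the start, and Ankrd1 at chr19:36119845-36120094 on the minus strand with matches at 210 and 123 bases.
Ccn1: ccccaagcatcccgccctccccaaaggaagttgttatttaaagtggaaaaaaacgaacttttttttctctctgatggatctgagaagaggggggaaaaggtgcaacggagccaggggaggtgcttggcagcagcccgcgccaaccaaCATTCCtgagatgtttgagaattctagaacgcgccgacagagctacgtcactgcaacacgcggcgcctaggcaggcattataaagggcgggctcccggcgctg
Ankrd1: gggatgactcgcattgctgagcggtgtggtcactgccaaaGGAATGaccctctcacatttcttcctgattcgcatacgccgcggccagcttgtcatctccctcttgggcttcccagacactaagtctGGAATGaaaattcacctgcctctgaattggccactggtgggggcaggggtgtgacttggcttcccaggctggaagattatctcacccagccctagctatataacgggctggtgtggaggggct
A match is a description of these letters, and binding of TEAD was not measured.

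Genes that mark position along the body axes differed in both directions, in part by cluster. Hox genes are laid out in 4 clusters, and those with the highest numbers are used in the hindmost trunk and the ends of limbs. Of 37 measured, 7 (18.9%) were lower and 21 (56.8%) higher (median 0.22), with 3 and 4 of them at 1.5-fold or more. Hoxd13, of digits and the genital region, read 8.57, 8.90, 8.84 and 8.48 in littermate and 6.54, 6.26, 6.41 and 6.36 in SIMPL-/- MEFs (difference -2.30, SE 0.096, adjusted p = 3.59e-09), the only member past 2-fold. The other falls were in the Hoxa and Hoxd clusters, led by Hoxd10 (-0.74), Hoxa13 (-0.70) and Hoxa11 (-0.53). All the rises lay in the Hoxa, Hoxb and Hoxc clusters, with Hoxb2 (0.76), Hoxc10 (0.74), Hoxb9 (0.64) and Hoxc9 (0.60) largest. Other positional factors fell more than they rose, 12 of 33 being lower and 6 higher (median -0.11). Among the lower were Tbx4 (-1.13), of hindlimb, Pax3 (-1.15), of somites and neural crest, Alx1 (-1.09), of facial mesenchyme, and Msx1 (-0.88), of limb and face. Among the higher were the heart and lateral mesoderm factors Hand2 (0.45), Tbx20 (0.42), Gata6 (0.33) and Foxf1 (0.29).

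**Figure D4:**
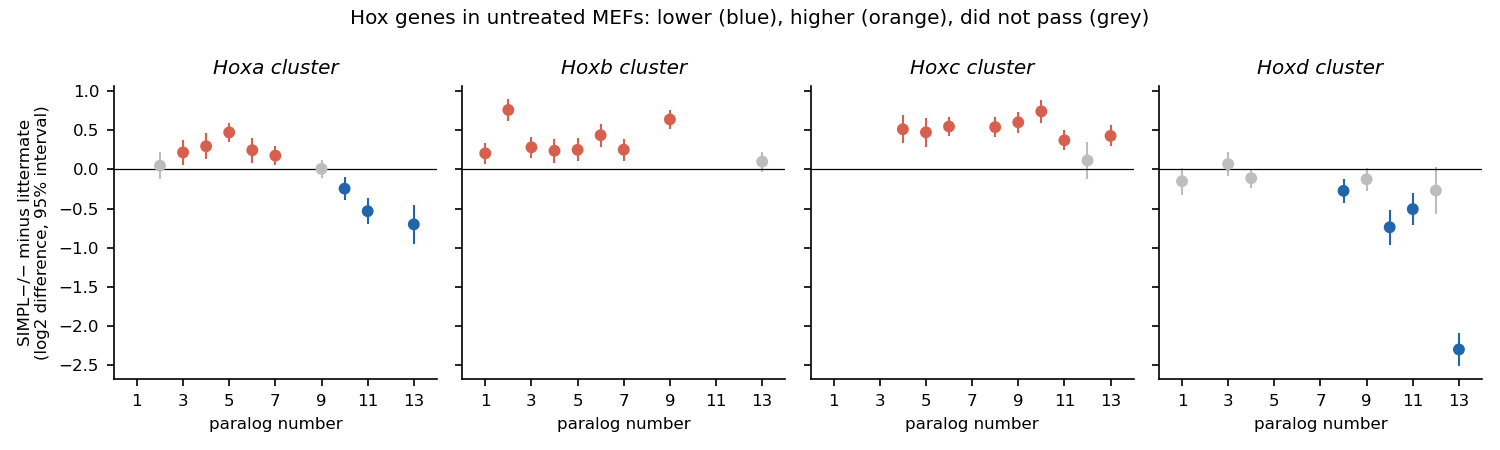
Differences between untreated SIMPL-/- and littermate MEFs (vertical axis, log2, with 95% intervals) for Hox genes by cluster and paralog number (horizontal axis). Points below 0 that passed the test lie in the Hoxa and Hoxd clusters at paralog numbers of 8 and above, while the Hoxb and Hoxc genes that passed lie above 0.

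In metabolism, lysosomal and sterol genes were lower, and more antioxidant genes were higher than lower. Of 23 lysosome genes, 20 (87%) were lower and 0 higher, with a median of -0.61. Ctsb, the protease cathepsin B, read 12.53, 12.50, 12.72 and 12.66 in littermate and 11.32, 11.26, 11.35 and 11.29 in SIMPL-/- MEFs (difference -1.30, SE 0.061, adjusted p = 9.3e-09), with no overlap between bright values. Hexa, a hexosaminidase, Cln3, a lysosomal membrane protein, and Gaa, the acid glucosidase, fell by 1.17, 1.02 and 1.0. None of the 23 is on the myeloid list, but the members of both lists were chosen. Macrophages are rich in lysosomes, and the part of myeloid cells in this fall was not tested. Of 20 genes of cholesterol synthesis, 15 (75%) were lower and 0 higher, all under 2-fold, with a median of -0.26. Tm7sf2 and Dhcr7, reductases of late steps, fell by 0.83 and 0.80, Fdft1, squalene synthase, by 0.47, and Insig1, a sensor of sterols, by 0.47. Hmgcs1 did not pass (-0.15, adjusted p = 0.0574).

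Of 32 NRF2 targets and glutathione genes, 17 (53.1%) were higher and 7 lower (median 0.17). Nqo1 read 6.56, 6.86, 6.66 and 6.71 in littermate and 9.50, 9.36, 9.38 and 9.50 in SIMPL-/- MEFs, 6.68-fold higher (difference 2.74, SE 0.07, adjusted p = 1.18e-10), far more than any other member. Gclc, the catalytic subunit that starts glutathione synthesis, rose by 0.76, the exporter Abcc1 by 0.72, and Srxn1 (sulfiredoxin) by 0.62. Against them, Fth1, the ferritin heavy chain, Gstt3, Gstm5 and Hmox1, heme oxygenase, fell by 0.61, 0.55, 0.53 and 0.39. Nfe2l2, the gene for NRF2 itself, differed by 0.011 (adjusted p = 0.861).

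The pathways of energy metabolism differed from one another. Of 74 oxidative phosphorylation genes, 4 (5.41%) were lower and 10 (13.5%) higher (median 0.044), against 18% and 25.4% of all genes, and none reached 1.5-fold. With arrays centered on their medians 19 were higher. Of 20 glycolysis genes, 6 (30%) were lower and 9 (45%) higher (median -0.0033), none of them 2-fold: Eno2 (-0.96), Aldoc (-0.72) and Pdk1 (-0.64) fell, and Pfkfb4 (0.61), Pfkp (0.39) and Ldha (0.38) rose. Of 20 fatty acid oxidation genes (median -0.09), 7 (35%) were lower, with Cpt1a, which admits fatty acids to mitochondria, at -0.68, and 2 (10%) higher. Among fatty acid synthesis genes, Scd1, a desaturase, rose (1.05) while Scd2 fell (-0.41), and Fasn, the fatty acid synthase, differed by -0.074 (adjusted p = 0.386). Of 15 serine and one-carbon genes, 8 (53.3%) were higher and 1 lower (median 0.16), the rises led by Cth (0.49) and Psat1 (0.45). Of retinoid genes, Crabp2, a carrier of retinoic acid, read 10.17, 10.23, 10.20 and 10.19 in littermate and 8.01, 7.98, 8.19 and 8.02 in SIMPL-/- MEFs (difference -2.15, SE 0.059, adjusted p = 1.66e-10), and Dhrs3 fell by 1.42, whereas Aldh1a3, which makes retinoic acid, rose by 1.53.

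Interferon-stimulated genes, which respond to STAT and IRF factors, were lower without TNFα. Of 33 interferon-stimulated and antigen presentation genes, 24 (72.7%) were lower and 2 higher, with a median of -0.45. Ifit1, which binds viral RNA, read 8.17, 8.13, 8.06 and 8.01 in littermate and 6.27, 6.18, 6.22 and 6.29 in SIMPL-/- MEFs (difference -1.86, SE 0.056, adjusted p = 3.43e-10). Ifit3 read 7.24, 7.41, 7.18 and 7.14 and 5.51, 5.52, 5.56 and 5.30 (difference -1.77, SE 0.075, adjusted p = 4.42e-09). Both genes were separate between genotypes on every array. Oasl2, an antiviral synthetase-like protein, fell by 1.22, and Stat2, a subunit of the factor that drives these genes, by 1.15. Ifitm1 and Ifitm3, membrane proteins that restrict virus entry, were the higher ones (0.20 and 0.15). Ifitm1 missed the threshold without littermate array 2 or SIMPL-/- array 3 (adjusted p = 0.0562 and 0.058), and Ifitm3 without littermate array 1, 2 or 3 or SIMPL-/- array 1, 3 or 4 (0.0536 to 0.0857). Irf1 did not pass (-0.086, adjusted p = 0.361). None of the 33 is on the myeloid list, but the members of both lists were chosen, and the part of myeloid cells in this fall was not tested.

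The letters GAAA repeated after any 2 bases (TTTC on the other strand, likewise repeated) are the core of the element through which interferons act. They stood in 14 of the 27 members that have windows (51.9%) and in 3.99% of all genes with windows. Of the 22 called members with a window, 11 held them. The list was drawn up of interferon-stimulated genes, so its share follows from that choice and says nothing about genotype. The bases before the start of Ifit1 and Ifit3, the members that fell most, are shown in the direction of the gene with the matches in capitals. Ifit1 is at chr19:34640639-34640888 on the plus strand, with matches that begin 104 and 85 bases before the start, and Ifit3 at chr19:34583279-34583528 on the plus strand, with matches at 156 and 122 bases.
Ifit1: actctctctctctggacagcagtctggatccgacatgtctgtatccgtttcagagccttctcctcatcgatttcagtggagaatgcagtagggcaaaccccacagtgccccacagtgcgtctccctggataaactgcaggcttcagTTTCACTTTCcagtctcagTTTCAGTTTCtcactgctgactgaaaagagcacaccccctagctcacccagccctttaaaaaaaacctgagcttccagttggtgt
Ifit3: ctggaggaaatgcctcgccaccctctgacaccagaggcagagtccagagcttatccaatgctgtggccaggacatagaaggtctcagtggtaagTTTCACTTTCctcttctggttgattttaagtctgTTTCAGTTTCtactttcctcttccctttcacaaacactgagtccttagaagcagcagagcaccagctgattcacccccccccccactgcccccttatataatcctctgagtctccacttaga
No factor's binding to these letters was measured in the arrays.

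Other immune genes went partly with the myeloid markers. Of 17 complement genes, 11 (64.7%) were lower and 3 higher (median -0.72), and 3 of the 11 are the C1q chains of the myeloid list. C3ar1, a receptor of a complement fragment that myeloid cells carry, fell by 2.75. Cd59a, which protects cells from complement, rose (0.83). Of 33 chemokines, 14 (42.4%) were lower and 5 (15.2%) higher (median -0.061). Ccl3, a chemokine of macrophages, read 8.62, 8.35, 9.04 and 8.70 in littermate and 6.04, 6.34, 6.15 and 6.50 in SIMPL-/- MEFs (difference -2.42, SE 0.13, adjusted p = 3.46e-08), and Ccl12 (-1.49) and Cxcl10 (-1.16) also fell. Ccl2 (-0.061, adjusted p = 0.484) did not pass, and Cx3cl1, a membrane-bound chemokine, rose (0.88).

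The measured genes of the TNF receptor and NF-κB pathway, in which SIMPL acts, held no called difference of 1.5-fold before TNFα. Traf3, Ripk1, Chuk, Nfkb1 and Irak4 were not among the measured genes. Of 34 measured members, 8 (23.5%) were lower and 6 (17.6%) higher (median 0.014), against 18% and 25.4% of all genes. The lower included Tab2 (-0.43), an adaptor of the kinase TAK1, and the inhibitor Nfkbia (-0.27). With quantile normalization 5 were lower and 10 higher, so the balance between the directions depends on the scaling. The higher included Nfkbiz (0.41) and Bcl3 (0.33), nuclear inhibitor-like proteins, and Map3k7 (0.29), which encodes TAK1. Tnfrsf1a, the main receptor of TNFα in fibroblasts, differed by -0.11 (95% interval -0.22 to 0.0032, adjusted p = 0.105).

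Several secreted mediators other than chemokines were higher. Of 18 stromal cytokines, 10 (55.6%) were higher and 4 lower (median 0.20), with 4 higher when dim genes were left out, 5 with quantile normalization and 6 without littermate array 3. Il6 read 4.21, 4.79, 5.07 and 4.61 in littermate and 6.00, 6.21, 5.87 and 5.89 in SIMPL-/- MEFs (difference 1.33, SE 0.15, adjusted p = 1.72e-05), with the littermate values under 5.80. Csf1, the growth factor of macrophages, read 10.24, 10.32, 10.19 and 10.04 and 11.43, 11.46, 11.33 and 11.31 (difference 1.18, SE 0.068, adjusted p = 5.2e-08). It thus rose in the cultures in which its receptor gene Csf1r was lower. Tslp rose by 1.60 from a dim level, and Il33 (-0.64) and Il15 (-0.52) fell. Ptgs2, which makes the precursor of prostaglandins, read 9.0, 8.56, 9.12 and 8.96 and 11.10, 11.13, 10.85 and 10.98 (difference 2.11, SE 0.11, adjusted p = 1.94e-08). The prostaglandin E receptor gene Ptger4 rose by 0.81 and the prostacyclin synthase gene Ptgis by 0.63, while Alox5ap, an activator of leukotriene synthesis in leukocytes, fell by 1.91 and Hpgd, which inactivates prostaglandins, by 0.49.

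Growth factor systems shifted in different directions. Of 16 genes of the insulin-like growth factor system, 9 were lower and 2 higher (median -0.46). Igf1, the ligand, read 9.81, 9.84, 9.97 and 9.80 in littermate and 8.15, 8.21, 8.30 and 8.32 in SIMPL-/- MEFs (difference -1.61, SE 0.061, adjusted p = 1.88e-09). The binding protein genes Igfbp3 (-1.96), Igfbp4 (-1.65) and Igfbp2 (-1.16) fell and Igfbp7 (0.62) rose, while Igf1r, the receptor, differed by 0.16 (adjusted p = 0.0573). In the TGF-β and BMP pathway of 45 genes, 19 (42.2%) were lower and 17 (37.8%) higher (median -0.061). Its largest rise was in Inhba, a subunit of activin, which read 9.52, 9.47, 9.31 and 9.14 and 11.13, 11.13, 11.01 and 10.99 (difference 1.70, SE 0.081, adjusted p = 1.05e-08). Inhbb, another subunit, rose by 1.23, and so did the activin antagonist Fst (1.37), so that ligand and antagonist genes rose in the same cultures. Gdf10 (-1.72), a ligand, and the receptor gene Tgfbr2 (-0.91) fell.

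Of 55 Wnt genes, 19 (34.5%) were lower and 20 (36.4%) higher (median 0.062). Secreted enhancers and inhibitors of Wnt led the falls: Rspo3 (-1.64) and Rspo2 (-1.39), which enhance it, and Sfrp2 (-1.12) and Dkk3 (-1.06), of inhibitor families. The ligand gene Wnt2 (0.80) led the rises. In the FGF and EGF pathways, 18 of 45 were higher and 7 lower (median 0.11). Dusp4, a phosphatase that restrains ERK, read 7.58, 7.55, 7.50 and 7.47 in littermate and 9.21, 9.03, 8.98 and 8.89 in SIMPL-/- MEFs (difference 1.5, SE 0.069, adjusted p = 8.36e-09), and the EGF receptor ligands Hbegf (1.39) and Ereg (1.11) and the ERK-responsive factor Etv4 (1.03) rose with it. Of 50 semaphorins, plexins and ephrin genes, which guide cells by contact, 25 were lower and 10 higher (median -0.16), the ends being Plxnc1 (-1.73) and Sema7a (2.02). Of 19 Notch genes, 4 were lower and 8 higher (median 0.14): Jag1, a Notch ligand, rose by 1.01 and Notch2 fell by 0.55. Of 13 Hedgehog genes, 6 (46.2%) were lower and 4 (30.8%) higher (median -0.058), the falls led by the coreceptors Gas1 (-0.99) and Boc (-0.85) and the rises all under 1.5-fold.

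Among growth control genes, 2 imprinted genes fell most. Cdkn1c, an imprinted inhibitor of cyclin-dependent kinases, read 11.90, 11.95, 11.95 and 11.94 in littermate and 9.16, 9.27, 9.51 and 9.39 in SIMPL-/- MEFs, 6.08-fold lower (difference -2.60, SE 0.072, adjusted p = 1.72e-10). Mest, another imprinted gene, read 12.57, 12.58, 12.45 and 12.51 and 9.95, 9.98, 10.28 and 10.08 (difference -2.46, SE 0.074, adjusted p = 3.17e-10). In both the groups lay apart on all arrays. Of 20 imprinted genes, 12 were lower, among them Plagl1 (-0.89), a zinc finger factor of the imprinted network, and 5 higher (median -0.39). Of 21 p53 targets and CDK inhibitors, 12 were higher, led by Eda2r (0.69) and Perp (0.60), and 5 lower (median 0.29). At 1.5-fold or more, 2 were higher and 3 lower, and on the TNFα treated arrays 9 were higher and 9 lower. Cdkn1a, Trp53, Bax and Gdf15 were not among the measured genes. Beside Cdkn1c, Sesn1, a stress-induced sestrin, was also past 2-fold (-1.02). Cdkn1b, another kinase inhibitor, differed by -0.61 on its brightest probe set and by -1.13, past 2-fold, on a dimmer one. Of 29 proliferation genes (median 0.091), 10 were higher, led by Ccne2 (0.66), Rrm2 (0.61) and Cdc6 (0.61), and 4 lower, with Mki67, the Ki-67 antigen, at -0.42. Pcna, the clamp of DNA replication, differed by -0.11 (adjusted p = 0.118).

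Genes beside Irak1bp1 were examined as a group. Of the 25 measured genes on either side, 50 in all, 17 (34%) were lower and 15 (30%) higher, against 18% and 25.4% of all genes, with a median of 0.015. Prss35, a serine protease, read 9.03, 8.96, 9.17 and 9.26 in littermate and 6.73, 6.81, 6.86 and 6.73 in SIMPL-/- MEFs (difference -2.32), and Htr1b, a serotonin receptor, rose by 1.10. These were the only neighbors past 2-fold.

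The differences were set beside those of the TNFα treated arrays, which the untreated fit did not use but which may come from the same cultures. There, 3345 genes (16.8%) were lower and 3075 (15.4%) higher in SIMPL-/- MEFs. Of the 391 genes at least 2-fold lower without TNFα, 389 were called lower with it, 353 of them at least 2-fold. Of the 121 at least 2-fold higher, 120 were called higher with it and 90 at least 2-fold. The exception among the 121 was Rnd1, which is named because its values stood apart. Rnd1 read 6.03, 6.45, 5.82 and 5.82 in untreated littermate and 7.26, 7.28, 7.26 and 7.09 in untreated SIMPL-/- MEFs (difference 1.19), but had means of 9.43 and 8.98 in the treated groups (difference -0.45, adjusted p = 0.00682). For Penk the differences were -4.48 without and -3.85 with TNFα, for Lum -2.87 and -2.78, for Car3 3.79 and 3.50, for Hoxd13 -2.30 and -1.87, and for Nqo1 2.74 and 1.72. The myeloid markers had 35 lower and 0 higher in the treated arrays, the adipocyte genes 3 and 15, and the lysosome genes 20 and 0. Other lists had other counts with TNFα: the epithelial markers had 6 higher in place of 13, the Wnt genes 6 in place of 20 and the cadherins 1 in place of 8, and the oxidative phosphorylation genes had 13 lower and 3 higher in place of 4 and 10. In the NF-κB pathway list 17 were lower and 4 higher with TNFα, in place of 8 and 6 without, and none of these differences between counts was tested.

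**Figure D5:**
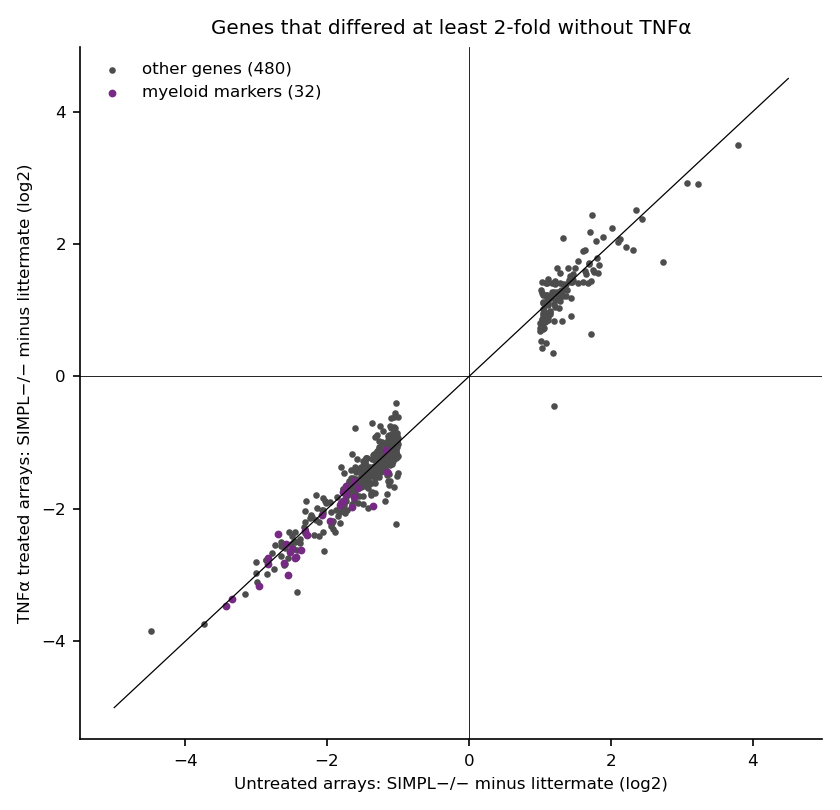
Difference between SIMPL-/- and littermate MEFs on the TNFα treated arrays (vertical axis, log2) against that on the untreated arrays (horizontal axis, log2) for the 512 genes that differed at least 2-fold without TNFα, 32 of them myeloid markers (purple), with the line of equality. Most genes lie near the line, and 1 gene (Rnd1) has opposite signs on the axes.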

How the data were processed

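RNA of MEFs had been hybridized to Affymetrix Mouse Gene 1.0 ST arrays. The deposited values are log2 signals that the submitters' processing notes credit to RMA in Partek, versions not given, while the study's methods name Affymetrix Microarray Suite. The cel files were not used here. Of 28853 probe sets, 21789 have 1 gene symbol, 1621 have several and 5443 are not listed, which left 19938 genes, 999 with several probe sets, of which the brightest over the 16 arrays was taken. The 2 groups of untreated arrays were fitted with limma 3.58.1 in R 4.3.3 (two-sided, 6 residual and 5.96 prior degrees of freedom), with Benjamini-Hochberg adjustment over all genes. A gene was called at an adjusted p under 0.05. The TNFα treated arrays were fitted separately in the same way. Across genes, Pearson's r was 0.997 to 0.998 between untreated arrays of 1 genotype and 0.981 to 0.985 between genotypes.

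The members and the 59 gene lists, the neighbors of Irak1bp1 among them, were chosen with earlier results of these data known, so no list was tested as a set, and lists are described by counts and medians, with the shares and median of all genes given once. Named genes are Irak1bp1, the 15 largest changes each way among called genes whose groups do not overlap, and for each list up to 4 called members each way and up to 3 members that did not pass, those with the highest means. Members of cell type lists may all be named, and Rnd1 was named after its values were seen. Promoter sequences are from RefSeq, build GRCm38.p6. The fit was also run on simulated data with independent arrays, a run that cannot speak to arrays that share a culture.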

Additional observations from a re-analysis of the deposited data

Results flagged for a closer look

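For each gene named above, the 4 untreated arrays of each genotype were examined for an array that stood apart, by the gap to its nearest neighbor as a share of the group's range. Of 452 such groups, 25 exceeded the 95% critical value of Dixon's test, which chance alone passes in about 1 group in 20. The values that stood apart on littermate array 2 were Fbn2 at 12.15 beside 11.99 to 12.02 (share 0.830), Lyz2 at 11.87 beside 12.05 to 12.07 (share 0.884) and Mfap5 at 10.26 beside 10.13 to 10.15 (share 0.837). On littermate array 3 the values that stood apart were Col4a6 at 6.17 beside 6.43 to 6.47 (share 0.845), Hoxc9 at 7.70 beside 7.50 to 7.52 (share 0.908), Irf1 at 8.68 beside 8.45 to 8.46 (share 0.955) and Scd1 at 10.84 beside 10.91 to 10.92 (share 0.857). The values that stood apart on littermate array 4 were Boc at 9.42 beside 9.58 to 9.58 (share 0.983) and Ccne2 at 7.52 beside 7.36 to 7.38 (share 0.884). On SIMPL-/- array 1 the values that stood apart were Hbegf at 10.10 beside 9.87 to 9.88 (share 0.936), Jag1 at 10.55 beside 10.41 to 10.43 (share 0.837) and Loxl3 at 11.65 beside 11.45 to 11.47 (share 0.929). The values that stood apart on SIMPL-/- array 2 were Cd68 at 8.32 beside 8.39 to 8.40 (share 0.942), Pecam1 at 5.20 beside 5.39 to 5.42 (share 0.895) and Tab2 at 10.76 beside 10.80 to 10.81 (share 0.854). On SIMPL-/- array 3 the values that stood apart were Crabp2 at 8.19 beside 7.98 to 8.02 (share 0.841), Eif2s3y at 7.99 beside 8.24 to 8.27 (share 0.883), Gdf10 at 8.24 beside 7.78 to 7.86 (share 0.833), Mfap5 at 11.04 beside 10.84 to 10.87 (share 0.856), Tgfbr2 at 10.34 beside 10.22 to 10.23 (share 0.911), Twist1 at 10.55 beside 10.28 to 10.32 (share 0.873) and Wnt2 at 7.29 beside 7.46 to 7.49 (share 0.872). The values that stood apart on SIMPL-/- array 4 were Cdc6 at 8.29 beside 8.41 to 8.42 (share 0.918), Ifit3 at 5.30 beside 5.51 to 5.56 (share 0.836) and Rnd1 at 7.09 beside 7.26 to 7.28 (share 0.903). These values fell on several arrays of both genotypes.

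Rnd1 had a genotype difference of 1.19 on the untreated arrays and -0.45 on the TNFα treated arrays. All 4 SIMPL-/- values lay above the littermate values without TNFα and below them with it. The difference between the 2 contrasts was not tested.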

How the results depend on the processing

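When calls were set at more than 1.5-fold with an unadjusted p below 0.001, 940 genes were lower and 443 higher, and at an adjusted p under 0.01, 2780 were higher. Under the other settings tried (all 16 arrays in 1 fit, other scaling, dim genes left out, other handling of probe sets, other moderation, array weights and the methods' t-test) each of the 4 counts of calls over all genes stayed within 1.5 times of that reported. Leaving out each array in turn gave 3212 to 3418 genes lower, 3988 to 4768 higher, 379 to 399 at least 2-fold lower and 112 to 123 at least 2-fold higher, and a difference for Irak1bp1 of -2.82 to -2.66. Of the 211 named genes that passed, 209 kept their direction and passed under every setting other than the changed thresholds, the exceptions being Ifitm1 and Ifitm3. With quantile normalization the differences of Clec7a (-0.045), Epcam (-0.014) and Pecam1 (-0.015), none of which passed, turned negative. Igf1r passed under 7 settings (adjusted p = 0.0159 to 0.046), Hmgcs1 under 4 (0.0119 to 0.0392), Myh11 and Tnfrsf1a under 2 each (0.0386 to 0.0393), F3 without littermate array 3 (0.038) and Pcna with trend and robust moderation (0.0452). No paired analysis was possible because the labels give no replicate numbers and no source pairs a SIMPL-/- with a littermate array.

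The number of arrays, 4 a group, limits the precision, and the 4 derivations per strain that the methods give are not tied to single arrays by the labels. Whether the arrays of a group are separate embryos is not known, so the SEs and p-values describe the spread between arrays. Small differences depend on how the arrays are scaled against each other, as the share of higher calls showed. Values below 5.80 lie where most olfactory receptor genes, dim here, also lie, and differences that start or end there are to be read with that in mind. Counts within single lists moved further, as given for oxidative phosphorylation, stromal cytokines and the NF-κB pathway.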
